A study of Mus musculus and Rattus norvegicus with 36 samples.

Results

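The response of cultured oligodendrocyte precursor cells (OPCs) to GABA was set side by side in rat and mouse, and the rat response minus the mouse response was taken gene by gene. The comparison used 12 of the 36 poly-A RNA-seq libraries of the series, in 4 groups of 3. The groups were rat cortex OPCs given GABA, rat cortex OPCs left untreated, mouse medial prefrontal cortex (mPFC) OPCs given GABA, and mouse mPFC OPCs left untreated. All were labelled wild type and cultured OPC, and no age, strain or sex is used here. Per the labels, cells grew for 2 days in proliferation medium before GABA was added at 200 uM for 24 h, and no other agent is named for these groups. Genes were matched by symbol, ignoring case: 13679 symbols stood in both tables, and 11082 of them had a value of at least 10 in at least 3 of the 6 libraries of each species and were tested. A further GABA experiment of the series, in mouse hippocampal OPC cultures (3 GABA and 3 untreated libraries), served to look at the same genes in libraries that entered neither side of the difference.

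OPCs are the dividing glial cells that give rise to myelinating oligodendrocytes. They carry GABA-A receptors, which are chloride channels, and GABA-B receptors, which couple to G proteins, and they receive synaptic contacts from GABA-releasing neurons in the brain. OPCs keep a high internal chloride level, so GABA-A channel opening depolarises them, and GABA has been studied as a signal that alters their division and maturation.

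Depth was 18.07 to 18.22 M reads in rat and 16.09 to 17.46 M reads in mouse mPFC, counting each library's smallest step in value as a read. The values are reads scaled by 1 factor per library and are not divided by gene length, so they are compared between groups and not between genes, and the rat and mouse tables were normalized separately. All 20 OPC markers of the list used were present in both tables, none of them at 0 throughout a group, and Pdgfra, the receptor by which OPCs are usually recognised, stood at 16399, 16261 and 16117 in rat GABA libraries and 15536, 16029 and 15147 in rat untreated libraries. Mouse Pdgfra stood at 25021, 24660.00 and 24487 in GABA libraries and 24083, 24525 and 23815 in untreated libraries. Replicate 1 of the mouse mPFC GABA group stood apart: its log2 values differed from those of its fellow replicates with an SD of 0.169 and 0.153, against 0.124 between the other 2 of the group and 0.110 to 0.132 within the remaining groups of the comparison. The labels do not say that replicates are separate cultures or animals, so p-values measure the spread between these libraries, which may be technical. Species, labelled region (cortex in rat, mPFC in mouse), table and culture set change together, and their parts in any difference cannot be told apart.

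Changes are given on the log2(value + 1) scale as GABA minus untreated, with the standard error, and a gene is said to have risen or fallen where limma's adjusted p was under 0.05. Over all genes tested in 1 species, 24% were called in rat and 6.54% in mouse mPFC. Among the 11082 genes tested in both species, 24.8% were called in rat and 7.47% in mouse. In rat 1379 rose (12.4%) and 1374 fell (12.4%), and in mouse 395 rose (3.56%) and 433 fell (3.91%). Rat and mouse calls met in 354 genes, which is 12.9% of the genes called in rat and 42.8% of those called in mouse. Of these, 158 rose in both species, 74 fell in both, 99 rose in rat and fell in mouse, and 23 fell in rat and rose in mouse. Without replicate 1 of the mouse GABA group the 4 counts were 216, 119, 178 and 63. Leaving out any 1 of the mouse untreated libraries gave 124 to 139 genes that moved the same way and 60 to 65 that moved in opposite ways.

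Genes that rose in mouse rose more often than they fell in rat, while genes that fell in mouse were split. Of the 395 genes that rose in mouse, 40% rose in rat and 5.82% fell there. Of the 433 that fell in mouse, 22.9% rose in rat and 17.1% fell, so that rat rises outnumbered rat falls. Without replicate 1 of the mouse GABA group these shares were 31.1% and 9.06% for the 695 genes that then rose in mouse, and 20.2% and 13.5% for the 880 that then fell. Across the 11082 genes the rat and mouse responses had a Pearson r of 0.154 and a Spearman coefficient of 0.072, given as a description, since genes of 1 library share its preparation and are not independent; without that replicate the values were 0.106 and 0.029 over 11049 genes.

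**Figure D1:**
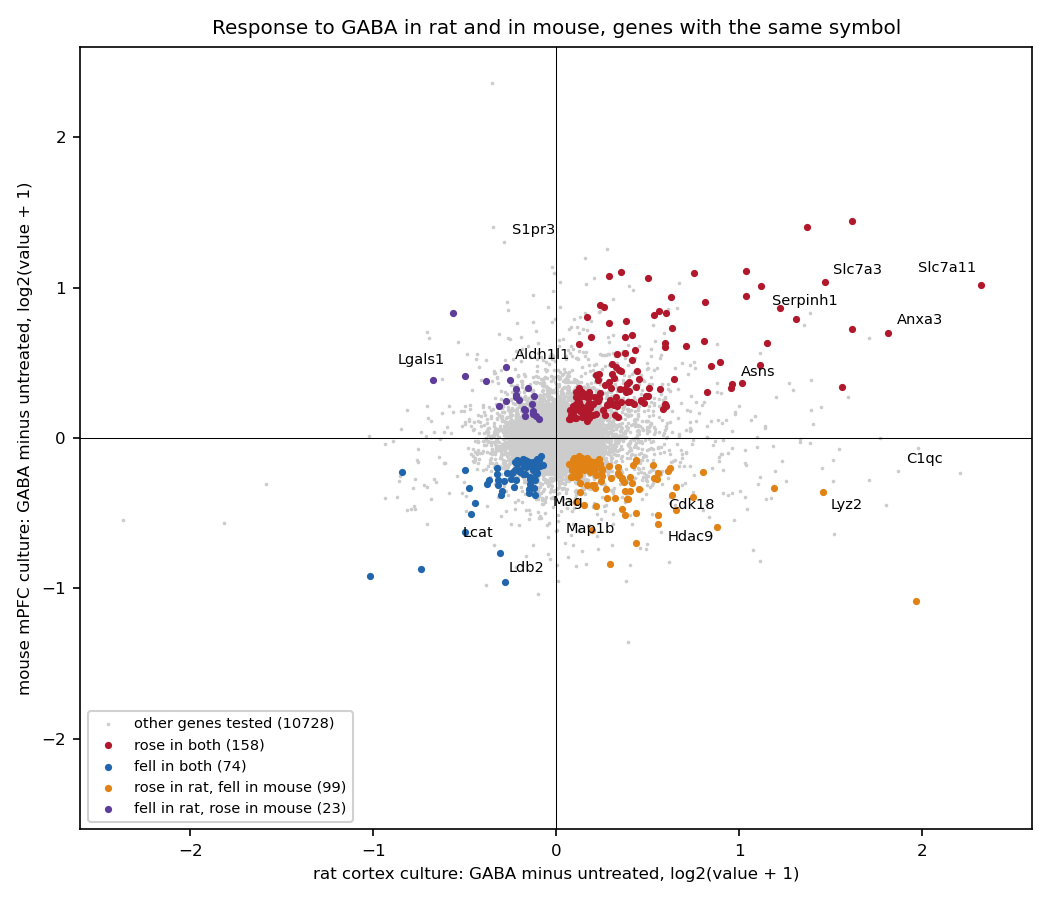
Response to GABA of each gene tested in both species, rat cortex culture on the horizontal axis and mouse mPFC culture on the vertical axis, both as GABA minus untreated in log2(value + 1). Coloured points passed the test in both species: 158 rose in both, 74 fell in both, 99 rose in rat and fell in mouse, and 23 fell in rat and rose in mouse, while grey points did not pass in both. 3 genes lie outside the axes, which end at 2.6.

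The difference of the responses itself passed in 1449 genes (13.1%), being higher in rat in 869 (7.84%) and lower in rat in 580 (5.23%). Most of these were called in 1 species alone: 808 in rat and 252 in mouse, with 34 called in both in the same direction, 122 called in both in opposite directions and 233 called in neither. All 122 genes with opposite calls had a difference that passed. That adds little to the 2 calls, since the same libraries were used and opposite changes give a difference larger than either. Without replicate 2 of the rat GABA group the count of differences was 959, and over all 12 fits without 1 library it ran from 959 to 1982. Median standard errors were 0.056 in rat and 0.071 in mouse, and 0.084 for the difference, which sets the size of gap that could be seen.

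**Figure D2:**
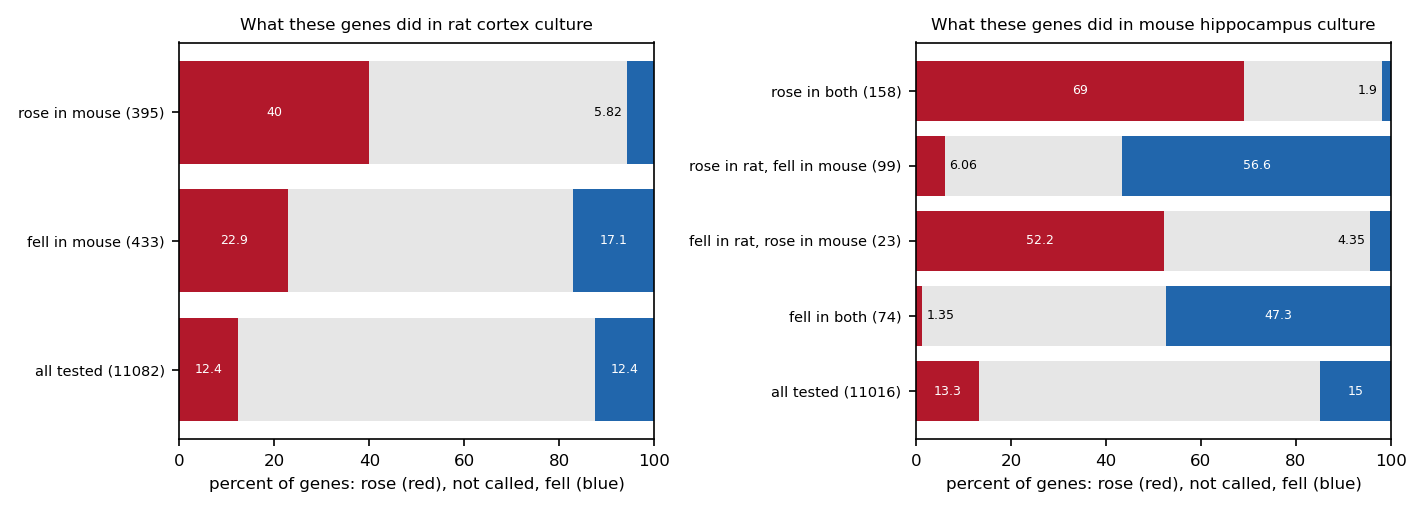
Left: of the genes that rose or fell in mouse mPFC cultures and of all genes tested, the percent that rose (red) or fell (blue) in rat cortex cultures. Right: the percent of each joint class that rose or fell in mouse hippocampal cultures. 40% of the genes that rose in mouse rose in rat, while the genes that fell in mouse divide between 22.9% that rose and 17.1% that fell in rat.

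Many genes of amino acid supply and of the ATF4 programme rose in both species. ATF4 is the transcription factor that cells make more of when the integrated stress response slows translation, for example when amino acids run short, and its targets import and make amino acids. Of 28 such genes tested, Trib3 and Stc2 reached the limit on low values through GABA libraries alone in rat, and Trib3 in mouse too, so they had to differ. Of the other 26, 20 rose and 1 fell in rat, 17 rose and 1 fell in mouse, and 15 rose in both. Rises among all genes tested in both species were 12.4% in rat and 3.56% in mouse. These 26 thus lay above those shares. Their median change was 0.34 in rat and 0.29 in mouse, against -0.0053 and -0.0048 over all genes tested in both. In hippocampal cultures 17 of the 26 rose and none fell at an adjusted p under 0.05 (limma).

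Slc7a11, the cystine importer of the cystine-glutamate exchanger, stood at 305, 306 and 274 in rat GABA libraries and 48.02, 71.8 and 57.2 in rat untreated libraries. In mouse it stood at 934, 931 and 970.3 with GABA and at 449, 492 and 459 without. No GABA library overlapped an untreated one in either species, and the rise was 2.32 ± 0.12 (adjusted p = 2.85e-17) in rat and 1.02 ± 0.06 (adjusted p = 2.18e-09) in mouse. It rose more in rat, the difference being 1.30 ± 0.14 (adjusted p = 1.45e-06), so that the gene belongs to the shared response and to the largest differences at once.

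Slc7a3, a transporter of arginine and lysine, stood at 266, 285 and 279 in rat GABA libraries and 109, 89.8 and 100.4 in rat untreated libraries. Mouse Slc7a3 stood at 142, 124 and 139 in GABA libraries and 66.4, 61.4 and 67.7 in untreated libraries. Its rise was 1.47 ± 0.10 (adjusted p = 3.11e-14) in rat and 1.04 ± 0.12 (adjusted p = 2.12e-05) in mouse, with a difference of 0.43 ± 0.15 that did not pass (adjusted p = 0.0552). Slc7a5 and Slc3a2 encode the light and heavy chains of the large neutral amino acid transporter. Slc7a5 stood at 5617, 5681 and 5442 in rat GABA libraries and 3655, 3702 and 3679.8 in rat untreated libraries. Mouse Slc7a5 stood at 2546, 2742 and 2631 in GABA libraries and 1524, 1491 and 1440.1 in untreated libraries. Slc3a2 rose by 0.60 ± 0.03 in rat and 0.60 ± 0.04 in mouse, and Slc7a5 by 0.60 ± 0.03 in rat and 0.83 ± 0.04 in mouse, a smaller rise in rat (-0.23 ± 0.05, adjusted p = 0.00385). Asns, which makes asparagine, had 997, 929 and 966 in rat GABA libraries and 477, 485 and 521 in rat untreated libraries. Mouse Asns stood at 1765, 1879.7 and 1787 in GABA libraries and 1427, 1413 and 1392 in untreated libraries. GABA and untreated libraries were apart in both species, and the rise of 0.96 ± 0.05 in rat exceeded that of 0.36 ± 0.04 in mouse by 0.60 ± 0.06 (adjusted p = 1.28e-06).

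Trib3, a pseudokinase that restrains ATF4, was nearly absent from the untreated libraries. It stood at 25.8, 34.01 and 30.8 in rat GABA libraries, against 1, 0 and 1 in rat untreated libraries, and at 38.2, 45.2 and 39.1 in mouse GABA libraries, against 2.97, 7.92 and 4.23 in mouse untreated libraries. GABA and untreated libraries were apart in both species, but every untreated value lay under the limit of 10, so no fold or test is given. Chac1, which degrades glutathione, rose by 1.62 ± 0.13 in rat and 1.44 ± 0.24 in mouse, and Pck2, the mitochondrial phosphoenolpyruvate carboxykinase, by 0.50 ± 0.10 in rat and 1.07 ± 0.09 in mouse, where its rise was the larger (-0.57 ± 0.13, adjusted p = 0.00515). Stc2, a secreted glycoprotein, stood at 20.9, 15 and 18.9 in rat GABA libraries and 2, 0 and 4.02 in rat untreated libraries, whereas mouse libraries held 103, 135 and 139.7 with GABA and 107, 117 and 111 without. GABA and untreated libraries were apart in rat and overlapped in mouse, and no fold or test is given for the same reason. Ddit4, an inhibitor of mTORC1 and likewise an ATF4 target, went the other way in both species, at -0.22 ± 0.03 (adjusted p = 4.22e-06) in rat and -0.22 ± 0.04 (adjusted p = 0.00408) in mouse; it is named, after its values were seen, as the single member that fell in both.

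The ATF4 programme acts through short promoter sites, so the mouse promoters of its risen members were searched for the letters TGATGNAA (TTNCATCA on the other strand), a common form of the C/EBP-ATF response element. RefSeq promoters of GRCm38.p6, from 250 bases before to 50 after the gene start, were on hand for 10 of the 15 members that rose in both species (leaving out Trib3 and Stc2), and 4 of the 10 held a match (40%). Among the other list members tested, again without these, 2 of 10 did (20%). Among the genes that rose in both species 8 of 117 did (6.84%), but 5 of the 8 and 11 of the 117 were ATF4 list members, Trib3 included. Among all genes tested in both 229 of 8866 did (2.58%), and among all genes with a RefSeq promoter 1219 of 27025 (4.51%). A match is a string of letters and does not show binding. The 4 promoters and that of Trib3, which also held a match, are printed 5′ to 3′ on the gene's strand because these genes were high with GABA in both species and hold the motif, with each match in capitals; they were picked after their values were seen. The match starts 14 bases after the gene start in Trib3 (chr2:152344011-152344310, minus strand), 193 bases before it in Chac1 (chr2:119350992-119351291, plus strand), 23 before it in Asns (chr6:7693160-7693459, minus strand), 66 and 47 before it in Slc7a11 (chr3:50443564-50443863, minus strand), and 103 before it in Pck2 (chr14:55540016-55540315, plus strand). For Slc7a11 the start used lies inside the annotated gene span (chr3:50364936-50499087) and not at its outer end.
Trib3: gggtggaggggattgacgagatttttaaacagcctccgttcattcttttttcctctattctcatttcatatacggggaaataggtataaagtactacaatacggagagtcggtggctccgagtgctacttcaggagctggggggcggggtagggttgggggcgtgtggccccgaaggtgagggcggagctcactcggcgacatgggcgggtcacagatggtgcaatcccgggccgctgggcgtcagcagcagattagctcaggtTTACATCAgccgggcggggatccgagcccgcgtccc
Chac1: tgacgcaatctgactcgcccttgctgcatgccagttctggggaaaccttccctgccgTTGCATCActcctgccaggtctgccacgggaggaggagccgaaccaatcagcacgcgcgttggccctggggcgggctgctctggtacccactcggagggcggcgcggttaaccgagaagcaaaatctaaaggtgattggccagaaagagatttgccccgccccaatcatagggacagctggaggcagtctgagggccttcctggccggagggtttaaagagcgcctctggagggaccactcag
Asns: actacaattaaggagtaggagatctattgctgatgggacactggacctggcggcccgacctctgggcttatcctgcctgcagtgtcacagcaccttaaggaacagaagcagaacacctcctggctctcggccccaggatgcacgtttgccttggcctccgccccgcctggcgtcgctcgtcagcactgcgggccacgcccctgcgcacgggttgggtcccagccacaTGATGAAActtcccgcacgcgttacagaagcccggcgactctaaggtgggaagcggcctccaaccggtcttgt
Slc7a11: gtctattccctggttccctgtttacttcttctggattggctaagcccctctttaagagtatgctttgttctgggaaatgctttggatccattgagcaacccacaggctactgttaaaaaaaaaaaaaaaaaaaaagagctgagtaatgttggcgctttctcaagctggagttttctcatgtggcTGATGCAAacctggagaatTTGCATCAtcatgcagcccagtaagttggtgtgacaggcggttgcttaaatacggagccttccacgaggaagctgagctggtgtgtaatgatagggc
Pck2: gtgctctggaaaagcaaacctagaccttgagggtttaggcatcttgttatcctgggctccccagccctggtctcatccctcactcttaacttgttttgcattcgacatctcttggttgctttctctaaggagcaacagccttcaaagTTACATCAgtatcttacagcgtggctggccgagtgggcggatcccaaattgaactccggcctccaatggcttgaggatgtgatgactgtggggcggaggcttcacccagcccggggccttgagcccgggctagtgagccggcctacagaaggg
Slc7a11 alone among the 5 holds a pair of matches, one on each strand.

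**Figure D3:**
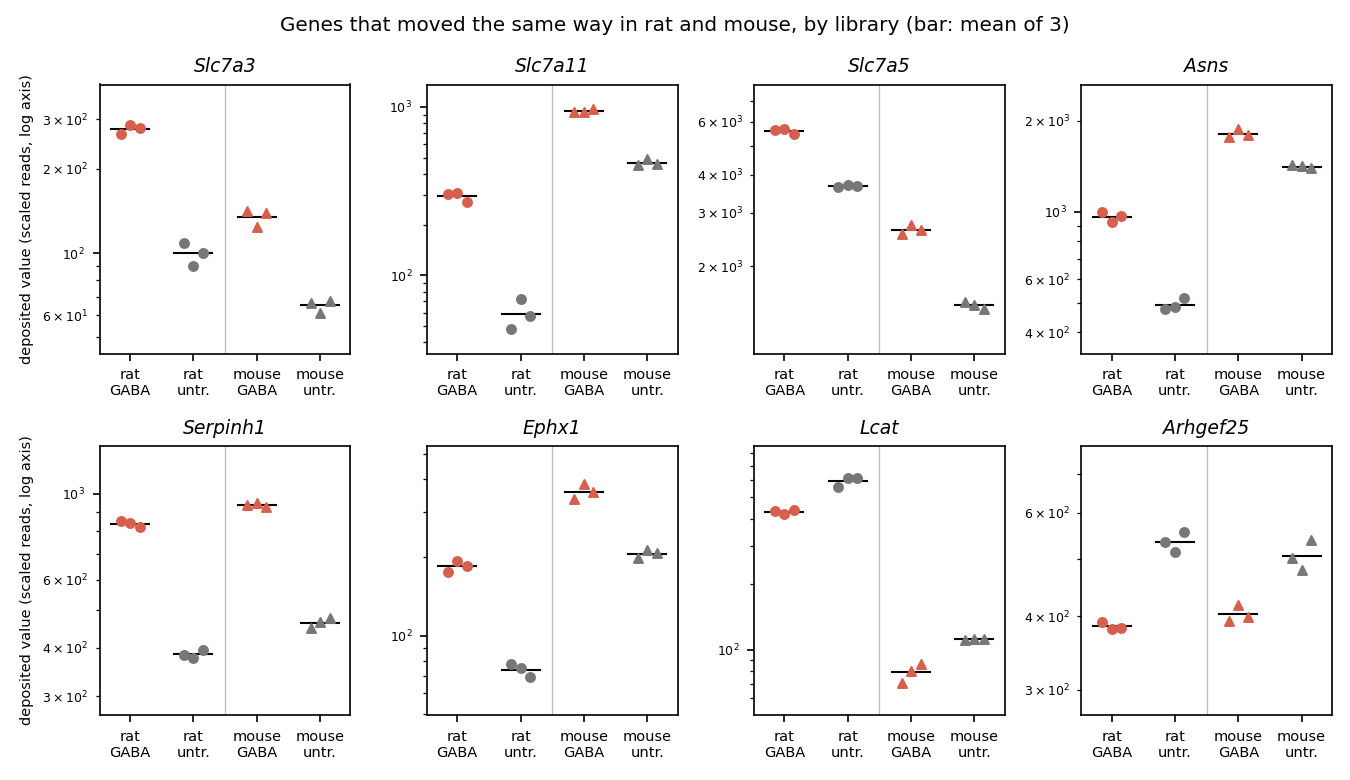
Deposited values (reads scaled per library, log axis) of 8 genes that moved the same way in rat cortex (circles) and mouse mPFC (triangles) cultures, GABA in red and untreated in grey, with each point a library and each bar the mean of 3. Slc7a3, Slc7a11, Slc7a5, Asns, Serpinh1 and Ephx1 lie higher with GABA in both species, Lcat and Arhgef25 lower, and no GABA library overlaps an untreated one within a species.

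Outside that list, further genes rose in both species. The genes named here moved furthest in the species where they moved less. They were picked among genes whose libraries did not overlap between GABA and untreated in either species. Their lack of overlap was thus fixed by the rule and is no further result, and 12.2% of all genes tested had it. Serpinh1, the collagen chaperone HSP47, stood at 849, 839 and 823 in rat GABA libraries and 382, 375 and 396 in rat untreated libraries. Mouse Serpinh1 stood at 934, 949 and 922 in GABA libraries and 449.7, 465 and 477 in untreated libraries. That is a rise of 1.12 ± 0.05 (adjusted p = 5.77e-18) in rat and 1.01 ± 0.05 (adjusted p = 2.18e-09) in mouse. Myl9, a regulatory light chain of smooth and non-muscle myosin, rose by 1.04 ± 0.07 in rat and 0.94 ± 0.14 in mouse, and Ephx1, microsomal epoxide hydrolase, by 1.31 ± 0.11 and 0.79 ± 0.08. Glipr2 rose by 0.81 ± 0.15 in rat and 0.91 ± 0.15 in mouse, and Car2, carbonic anhydrase 2, by 0.63 ± 0.08 and 0.73 ± 0.10. Anxa3, a calcium-dependent membrane-binding protein, had 85.4, 96.02 and 79.5 in rat GABA libraries and 27.01, 22.9 and 22.1 in rat untreated libraries. Mouse Anxa3 stood at 191, 190.3 and 232 in GABA libraries and 114, 128 and 133 in untreated libraries. Its difference was 1.11 ± 0.18 (adjusted p = 0.00031), and that of Ephx1 0.52 ± 0.12 (adjusted p = 0.00754); the differences of Serpinh1, Myl9, Glipr2 and Car2 lay between -0.10 and 0.11 and did not pass.

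Some targets of p53, the transcription factor of the DNA damage response, rose in both species. Of 14 tested, 5 rose in both (3 with no filter on low values): 7 rose and 1 fell in rat, 6 rose and 0 fell in mouse (limma, with 1 lower at an unadjusted p under 0.05). The list's median change was 0.15 in both, and among all genes tested in both species 12.4% rose in rat and 3.56% in mouse. The 5 that rose in both, listed after their values were seen, were Cdkn1a, Ccng1, Phlda3, Eda2r and Zmat3. Cdkn1a, the cyclin-dependent kinase inhibitor p21, stood at 605, 620.1 and 579 in rat GABA libraries and 358, 326 and 319 in rat untreated libraries. Mouse Cdkn1a stood at 443, 494 and 475 in GABA libraries and 351, 338 and 321 in untreated libraries. Its rise of 0.85 ± 0.06 in rat was larger than that of 0.48 ± 0.07 in mouse by 0.36 ± 0.09 (adjusted p = 0.0104). Ccng1, cyclin G1, rose by 0.33 ± 0.03 in rat and 0.27 ± 0.04 in mouse. Bax, the apoptosis effector, fell in rat but not in mouse, and its responses differed: it stood at 1573, 1520.3 and 1495 in rat GABA libraries and 1632, 1640.3 and 1779 in rat untreated libraries. Mouse Bax stood at 1376, 1405 and 1313 in GABA libraries and 1164, 1238 and 1254 in untreated libraries. The Bax response differed between the species by -0.30 ± 0.06 (adjusted p = 0.00285). Phlda3 lost its mouse call in 5 of 6 fits that left out a mouse library (adjusted p up to 0.168), and Bax its rat call in 2 of 6 (up to 0.0693).

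Several matrix genes rose in both species, and Fbln2 rose more in mouse. Of 21 tested, Col1a2 reached the limit in rat through GABA libraries alone. Of the other 20, 7 rose and 2 fell in rat, 8 rose and 0 fell in mouse (limma, with 1 lower at an unadjusted p under 0.05), 5 rose in both, and the median was 0.15 in rat and 0.18 in mouse. For this list and the hypoxia list below, the shares rising among all genes tested in both species were 12.4% in rat and 3.56% in mouse. Fbln2, fibulin-2, rose by 0.17 ± 0.04 in rat and 0.81 ± 0.06 in mouse, a difference of -0.64 ± 0.08 (adjusted p = 8.67e-06). Tnc, the matrix glycoprotein tenascin-C, stood at 9985, 9703 and 9912 in rat GABA libraries and 10175, 10317 and 9844 in rat untreated libraries. Mouse Tnc stood at 3212, 3256 and 3180.5 in GABA libraries and 2156, 2197 and 2249 in untreated libraries. The groups overlapped in rat and were apart in mouse. The difference of -0.58 ± 0.04 (adjusted p = 6.5e-09) had one of the 8 smallest p-values among all genes. Fn1, fibronectin, stood at 269, 234 and 241 in rat GABA libraries and 105, 132 and 106 in rat untreated libraries. Mouse Fn1 stood at 234, 353 and 329 in GABA libraries and 199, 233 and 211 in untreated libraries. The call of its mouse rise of 0.49 ± 0.12 was lost in 4 of 6 fits without 1 mouse library (adjusted p up to 0.0989). Vegfa, the angiogenic growth factor, belonged to a list of 23 hypoxia and glycolysis genes of which 6 rose and 1 fell in rat, 5 rose and 0 fell in mouse (limma, also 0 lower at an unadjusted p under 0.05) and 3 rose in both. Without replicate 1 of the mouse GABA group 8 rose in mouse and 5 in both. Vegfa rose by 0.40 ± 0.04 in rat and 0.37 ± 0.06 in mouse.

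Shared falls were fewer and smaller. Arhgef25, a guanine nucleotide exchange factor, stood at 390.4, 380.1 and 382 in rat GABA libraries and 535, 514 and 557 in rat untreated libraries. Mouse Arhgef25 stood at 393, 418 and 399 in GABA libraries and 503, 479 and 540.3 in untreated libraries. The change was -0.48 ± 0.06 (adjusted p = 6.57e-08) in rat and -0.33 ± 0.07 (adjusted p = 0.00427) in mouse. Lcat, which esterifies cholesterol in lipoproteins, stood at 431, 421 and 437 in rat GABA libraries and 557, 612 and 615 in rat untreated libraries. Mouse Lcat stood at 70.3, 79.8 and 85.99 in GABA libraries and 111, 112 and 112 in untreated libraries. Rftn2 changed by -0.28 ± 0.04 in rat and -0.29 ± 0.05 in mouse, Lims2, an adaptor of focal adhesions, by -0.30 ± 0.08 and -0.35 ± 0.04, and Ldb2, a cofactor of LIM-domain transcription factors, by -0.31 ± 0.09 and -0.76 ± 0.15. Capg, an actin-capping protein, changed by -0.44 ± 0.03 in rat and -0.43 ± 0.12 in mouse, Ypel3 by -0.32 ± 0.05 and -0.31 ± 0.09, and Aopep, an aminopeptidase, by -0.38 ± 0.10 and -0.31 ± 0.08. None of these 8 had a difference that passed. Calls of shared falls leaned on single libraries: the mouse call was lost in 5 of 6 fits without 1 mouse library for Capg and Ypel3, in 4 for Aopep, in 3 for Lcat and in 1 for Arhgef25, and the rat call in 2 of 6 for Ldb2 and Lims2.

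A number of myelin genes rose in rat cultures, fell in mouse cultures, or did both. Of 13 genes of myelin and of mature oligodendrocytes that were tested, 7 rose and 1 fell in rat, 0 rose and 5 fell in mouse (limma, with 1 higher and 8 lower at an unadjusted p under 0.05), 5 did both, and the difference was higher in rat for 10 and lower for 1. The median change was 0.19 in rat and -0.13 in mouse. Among all genes tested in both species, 12.4% rose in rat and 3.91% fell in mouse. The other listed genes present in both tables lay under the limit on low values. Summed over all 21 present, the myelin list stood at 239610 to 240550 in rat GABA libraries and 199450 to 205140 in rat untreated libraries. In mouse it stood at 55408 to 56553 in GABA libraries and 61793 to 62690 in untreated libraries. Abundant genes weigh most in these sums, and Mbp, given below, makes up a large part of those in rat. In bulk RNA, fewer cells of a type and less RNA per cell cannot be told apart.

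Mbp, myelin basic protein, stood at 92553, 88469 and 90824 in rat GABA libraries and 71337, 67921 and 72772 in rat untreated libraries. In mouse it stood at 2929, 3421 and 3255 with GABA and at 3777, 3837 and 3928 without. Every rat GABA library lay above every rat untreated one and every mouse GABA library below every mouse untreated one, with changes of 0.36 ± 0.03 in rat and -0.27 ± 0.05 in mouse and a difference of 0.63 ± 0.06 (adjusted p = 2.01e-07). Mag, the myelin-associated glycoprotein, changed by 0.32 ± 0.03 in rat and -0.40 ± 0.05 in mouse, and Cldn11, the tight junction protein of myelin, by 0.29 ± 0.03 and -0.19 ± 0.04, the mouse call of Cldn11 being lost in 2 of 6 fits without 1 mouse library. In hippocampal cultures, Mbp changed by 0.11 ± 0.04 (adjusted p = 0.026) and Mag by 0.09 ± 0.05 (adjusted p = 0.146), so the mPFC fall of these 2 genes was not seen there. Of all 13 myelin genes tested, 2 rose and 2 fell in hippocampus, against 13.3% rising and 15% falling among all genes.

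Genes of committed OPCs, the stage between dividing precursors and myelinating cells, held rises in rat and falls in mouse. Of 15 tested, 8 rose and 4 fell in rat, 0 rose (also 0 at an unadjusted p under 0.05, limma) and 8 fell in mouse, and the difference was higher in rat for 11 and lower for 1. Shares over all genes tested in both species were 12.4% rising and 12.4% falling in rat, and 3.91% falling in mouse. In hippocampal cultures 1 of the 15 rose and 6 fell, against 13.3% rising and 15% falling among all genes. Frmd4a, a scaffold protein of cell polarity, stood at 6626, 6545 and 6559.7 in rat GABA libraries and 5859, 6025 and 5345 in rat untreated libraries. Mouse Frmd4a stood at 2524, 2600.5 and 2602 in GABA libraries and 3983, 3954 and 3844 in untreated libraries. The difference was 0.81 ± 0.05 (adjusted p = 7.16e-10). Nfasc, an adhesion molecule of the axon-glia junction, had 49755, 49119 and 48190.00 in rat GABA libraries and 39894, 41467 and 39949 in rat untreated libraries. Mouse Nfasc stood at 13330.00, 15443 and 15398 in GABA libraries and 19143, 19438 and 19647 in untreated libraries. Enpp6, a choline phosphodiesterase made by newly formed oligodendrocytes, changed by 0.40 ± 0.03 in rat and -0.26 ± 0.04 in mouse, and Tmem163, a zinc transporter, by 0.56 ± 0.04 and -0.23 ± 0.05. Gpr17, the receptor that marks this stage, changed by -0.13 ± 0.03 (adjusted p = 0.000302) in rat and -0.11 ± 0.03 (adjusted p = 0.056) in mouse with no difference that passed (-0.02 ± 0.04). Bcas1, an abundant marker of the stage, rose by 0.08 ± 0.03 (adjusted p = 0.0365) in rat with a difference of 0.16 ± 0.04 (adjusted p = 0.0135), both of which turned negative under quantile normalization (-0.04 and -0.07), and the rat call was lost in 4 of 6 fits without 1 rat library.

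Markers of the precursor stage itself showed no common direction. Of 20 tested, 6 rose and 9 fell in rat, against 12.4% rising and 12.4% falling among all genes tested in both species. In mouse 1 rose and 2 fell (3 and 4 without replicate 1 of its GABA group), against 3.56% rising and 3.91% falling among all genes. The summed list stood at 234200 to 236340 in rat GABA libraries and 235140 to 239710 in rat untreated libraries. In mouse it stood at 316790 to 324430 in GABA libraries and 332300 to 334930 in untreated libraries. Cspg4, the NG2 proteoglycan, rose in both species (0.12 ± 0.03, adjusted p = 0.00131 in rat and 0.20 ± 0.04, adjusted p = 0.00262 in mouse). Nkx2-2, a transcription factor of the lineage, fell in both (-0.32 ± 0.03, adjusted p = 8.9e-11 in rat and -0.24 ± 0.05, adjusted p = 0.00784 in mouse). Tnr, the matrix protein tenascin-R, stood at 15766, 15784 and 15753 in rat GABA libraries and 13302, 13948 and 12827 in rat untreated libraries. Mouse Tnr stood at 47101, 46550.00 and 47846 in GABA libraries and 53484, 54086 and 51811 in untreated libraries. That is a rise in rat and a fall in mouse with a difference of 0.41 ± 0.04 (adjusted p = 1.67e-06). The mouse calls of Tnr and Nkx2-2 were each lost in 1 of 6 fits without 1 mouse library.

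**Figure D4:**
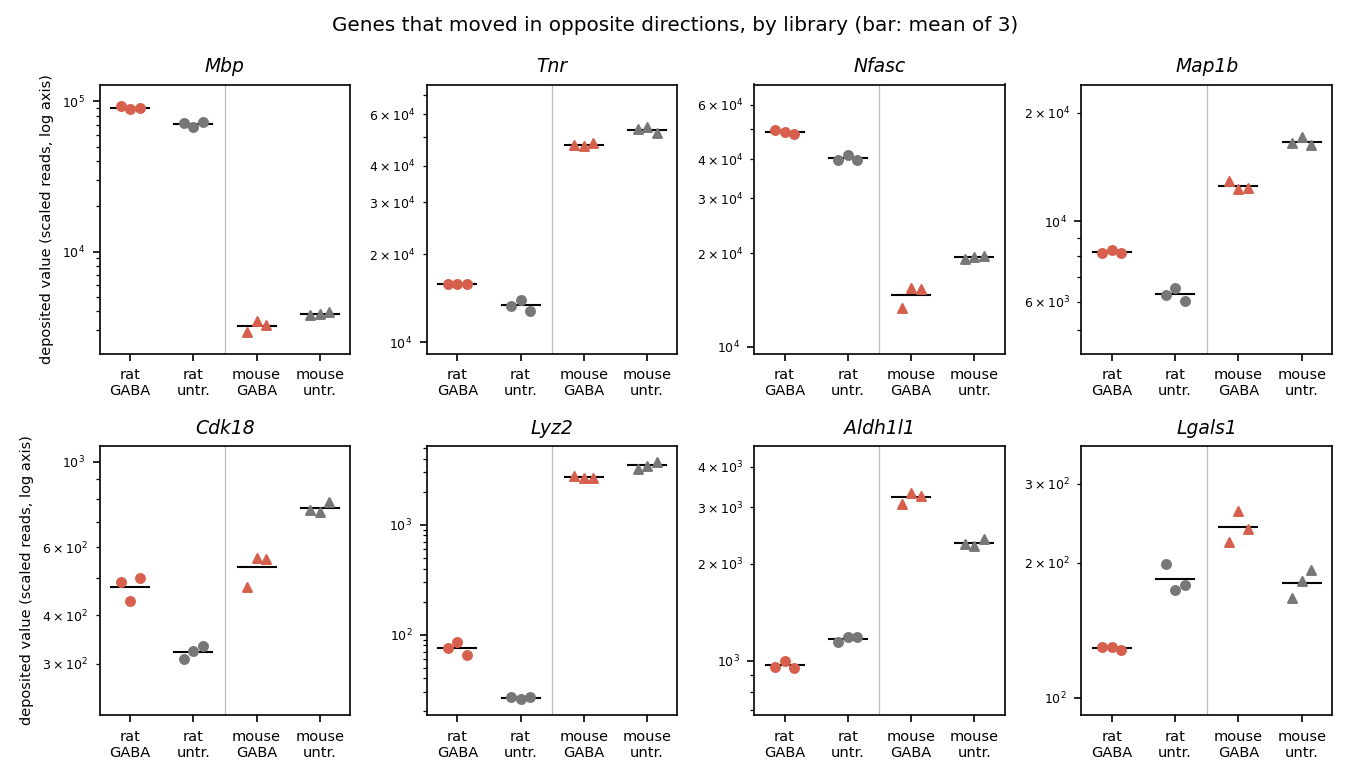
Deposited values (reads scaled per library, log axis) of 8 genes that moved in opposite directions, rat cortex cultures as circles and mouse mPFC cultures as triangles, GABA in red and untreated in grey, each point a library and each bar the mean of 3. Mbp, Tnr, Nfasc, Map1b, Cdk18 and Lyz2 lie higher with GABA in rat and lower with GABA in mouse, and Aldh1l1 and Lgals1 the other way round.

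Among the other genes that rose in rat and fell in mouse, those that moved furthest in the species where they moved less were Hdac9, Cdk18, Kcnj3, St18, Ctss and Map1b. Map1b, a microtubule-associated protein of growing processes, stood at 8186, 8309.5 and 8178 in rat GABA libraries and 6243, 6554 and 6029.9 in rat untreated libraries. Mouse Map1b stood at 12905, 12312 and 12364 in GABA libraries and 16493, 17106 and 16284 in untreated libraries. Its changes of 0.39 ± 0.03 and -0.41 ± 0.03 gave a difference of 0.80 ± 0.05 (adjusted p = 3.97e-10). Cdk18, a kinase of the cyclin-dependent family, had 489, 435 and 499 in rat GABA libraries and 309, 324 and 333 in rat untreated libraries. Mouse Cdk18 stood at 474, 563 and 559.9 in GABA libraries and 749, 742 and 785 in untreated libraries. Hdac9, a class IIa histone deacetylase, changed by 0.55 ± 0.07 in rat and -0.57 ± 0.12 in mouse mPFC, and in hippocampal cultures it rose by 1.16 ± 0.13 (adjusted p = 3.04e-07), the direction of rat. Kcnj3, a potassium channel subunit that G proteins open downstream of GABA-B receptors in neurons, changed by 0.66 ± 0.16 in rat and -0.48 ± 0.09 in mouse, and St18, a zinc finger transcription factor, by 0.44 ± 0.10 and -0.50 ± 0.12. Leaving out 1 mouse library ended the mouse call of St18 in 3 of 6 fits and that of Hdac9 in 1, while the differences passed in all 12 fits without 1 library.

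In the reverse class, genes that fell in rat and rose in mouse, Aldh1l1 had the smallest p for its difference. This folate enzyme, widely used to mark astrocytes, stood at 954, 996 and 949 in rat GABA libraries and 1143, 1180.4 and 1181 in rat untreated libraries. Mouse Aldh1l1 stood at 3068, 3320.3 and 3261 in GABA libraries and 2299, 2274 and 2388 in untreated libraries. The Aldh1l1 response differed between the species by -0.74 ± 0.06 (adjusted p = 6.5e-09). Slc25a18, a mitochondrial glutamate carrier, changed by -0.38 ± 0.08 in rat and 0.38 ± 0.06 in mouse. Lgals1, galectin-1, had 130.1, 130.02 and 128 in rat GABA libraries and 199, 174 and 179 in rat untreated libraries. Mouse Lgals1 stood at 223, 260.4 and 238 in GABA libraries and 167, 182 and 192 in untreated libraries. H2ax, the histone variant phosphorylated at DNA breaks, changed by -0.22 ± 0.03 in rat and 0.29 ± 0.06 in mouse, Ogg1, a glycosylase that removes oxidised guanine, by -0.25 ± 0.07 and 0.38 ± 0.09, and Fam83d, a mitotic spindle protein, by -0.28 ± 0.06 and 0.25 ± 0.06. The mouse calls of Fam83d, Lgals1 and Ogg1 were lost in 3, 1 and 1 of 6 fits without 1 mouse library.

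Astrocyte genes as a list moved in both directions. Of 15 tested, 7 rose and 5 fell in rat and 6 rose and 3 fell in mouse (5 fell without replicate 1 of its GABA group), of which 4 rose in both, 3 fell in both and Aldh1l1 alone was opposite. All genes tested in both species gave 12.4% rising and 12.4% falling in rat, and 3.56% rising and 3.91% falling in mouse. The summed list stood at 60339 to 61067 in rat GABA libraries and 62832 to 65883 in rat untreated libraries, and at 52369 to 53458 in mouse GABA libraries and 53463 to 54180 in mouse untreated libraries. Slc4a4, a sodium bicarbonate cotransporter, rose by 0.51 ± 0.05 in rat and 0.33 ± 0.04 in mouse, and Slc1a3, the glutamate transporter GLAST, by 0.26 ± 0.03 and 0.15 ± 0.04. Glul, glutamine synthetase, fell in both (-0.50 ± 0.03 in rat and -0.21 ± 0.05 in mouse), as did Gfap, the astrocyte intermediate filament (-0.12 ± 0.03 and -0.38 ± 0.04). The mouse calls of Slc1a3 and Glul were lost in 3 and 2 of 6 fits without 1 mouse library. Slc1a2, the glutamate transporter GLT-1, rose in rat (0.54 ± 0.08, adjusted p = 2.23e-06), stood at -0.10 ± 0.05 (adjusted p = 0.204) in mouse, and differed by 0.64 ± 0.07 (adjusted p = 3.68e-06).

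Microglial transcripts made up most of the largest differences in the direction of rat. Microglia are immune cells and not OPCs, and their transcripts gave few reads: the 16 listed genes together held 2574.5 to 2638.5 in rat GABA libraries and 1569.5 to 1660.8 in rat untreated libraries, and 5888 to 6025 in mouse GABA libraries and 6824 to 7350.5 in mouse untreated libraries. No listed gene was at 0 throughout a group, and Tmem119, a defining marker, lay under the limit on low values. Of the other 15 genes, all tested, 14 rose and 0 fell in rat (limma, also 0 at an unadjusted p under 0.05), 1 rose and 2 fell in mouse, and the difference was higher in rat for 14. The medians were 0.91 in rat and -0.12 in mouse, and in hippocampal cultures 0 rose and 7 fell. Among all genes tested in both species, 12.4% rose in rat, 3.91% fell in mouse mPFC and 15% fell in hippocampus.

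C1qc, a chain of the complement protein C1q, stood at 167, 127 and 137 in rat GABA libraries and 32.02, 41.9 and 42.2 in rat untreated libraries. Mouse C1qc stood at 250.04, 239 and 251 in GABA libraries and 324, 267 and 275 in untreated libraries. The C1qc response differed between the species by 2.09 ± 0.17 (adjusted p = 2.32e-08). C1qa and C1qb, the other chains, differed by 1.42 ± 0.15 and 1.66 ± 0.15. Lyz2, the lysozyme of myeloid cells, had 75.5, 85.02 and 65.6 in rat GABA libraries and 27.01, 25.9 and 27.1 in rat untreated libraries. Mouse Lyz2 stood at 2779, 2683 and 2643 in GABA libraries and 3250.00, 3428 and 3728 in untreated libraries. It thus rose in rat and fell in mouse, with a difference of 1.81 ± 0.11 (adjusted p = 3.97e-10). The error of this difference lies under that of the rat response alone (0.17), since the joint fit took 1 spread for both species. Both it and the p-value may therefore be too small. Ctss, the protease cathepsin S, also rose in rat and fell in mouse, by 0.75 ± 0.11 in rat and -0.39 ± 0.06 in mouse. Itgb2, the beta chain of leukocyte integrins, differed by 1.39 ± 0.25, Myo1f, a myosin of leukocytes, by 1.32 ± 0.19, and Inpp5d, a lipid phosphatase of blood cells, by 1.24 ± 0.23. Across these 3 genes, values ran over 46.7 to 84.4 in rat GABA libraries and 21.01 to 44.02 in rat untreated libraries, and over 85.01 to 107 in mouse GABA libraries and 86.1 to 133 in mouse untreated libraries. Among genes with a mean of at least 50 in a group of each species, 7 of the 8 largest differences towards rat were such transcripts of immune cells, the exception being Slc7a11. The part of the number of microglia in these values was not tested.

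**Figure D5:**
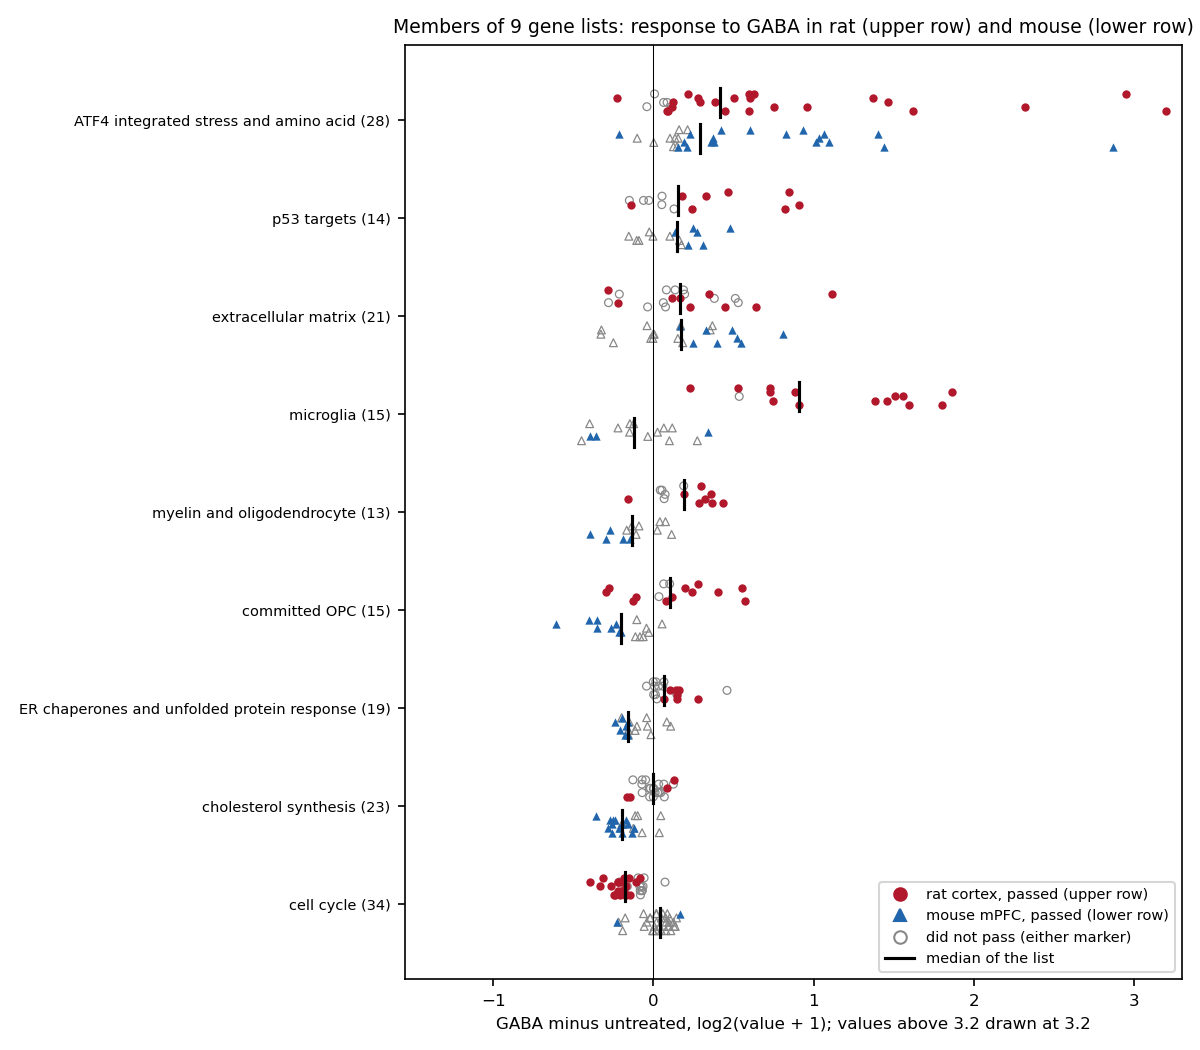
Response to GABA, in log2(value + 1), of each tested member of 9 gene lists, rat cortex cultures in the upper row (circles) and mouse mPFC cultures in the lower row (triangles), filled where limma's adjusted p was under 0.05 and open where it was not, with a black tick at the median. The plot holds all members tested, Trib3, Stc2 and Col1a2 included. Values above 3.2, here Trib3 in rat, are drawn at 3.2. The medians of the ATF4, p53 and matrix lists lie to the right of 0 in both species, those of the microglial, myelin, committed OPC and chaperone lists lie on opposite sides of 0, and that of the cell cycle list lies to the left in rat.

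Chaperones of the endoplasmic reticulum and enzymes of cholesterol synthesis, both needed in quantity by cells that make myelin membrane, included many falls in mouse and few in rat. Of 19 chaperone and unfolded protein response genes tested, 7 rose and 0 fell in rat (limma, also 0 lower at an unadjusted p under 0.05), while 0 rose and 7 fell in mouse (1 higher and 14 lower unadjusted). The difference was higher in rat for 12 and lower for 0 (14 and 0 unadjusted). Without replicate 1 of the mouse GABA group 11 fell in mouse. Among all genes tested in both species, 12.4% rose in rat and 3.91% fell in mouse mPFC. In hippocampal cultures 0 of the 19 rose and 9 fell at an adjusted p under 0.05 (limma), against 13.3% and 15% of all genes. Changes were small: Hspa5, the chaperone BiP, stood at 11064, 11101 and 11218 in rat GABA libraries and 10611, 10628 and 10562 in rat untreated libraries. Mouse Hspa5 stood at 10680.00, 9658 and 9872 in GABA libraries and 11333, 11322 and 11435 in untreated libraries. The Hspa5 response differed between the species by 0.25 ± 0.05 (adjusted p = 0.00109). Its single-species calls were lost in 5 of 6 fits without 1 rat library and in 3 of 6 without 1 mouse library, but the difference passed in all 12. Calr, calreticulin, changed by 0.00 ± 0.03 in rat and -0.21 ± 0.03 in mouse, and Hyou1, a further chaperone, by 0.15 ± 0.03 and -0.11 ± 0.04.

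Of 23 cholesterol genes tested, 2 rose and 2 fell in rat, 0 rose (also 0 at an unadjusted p under 0.05, limma) and 15 fell in mouse, and the difference was higher in rat for 11 and lower for 0 (16 and 0 unadjusted). Idi1, isopentenyl diphosphate isomerase, stood at 5305, 5667 and 5542 in rat GABA libraries and 5139.5, 5037 and 4926 in rat untreated libraries. Mouse Idi1 stood at 941, 898 and 942 in GABA libraries and 1159.9, 1208 and 1198 in untreated libraries. The Idi1 response differed between the species by 0.49 ± 0.05 (adjusted p = 1.1e-06). Hmgcs1, HMG-CoA synthase, had 23632, 23745 and 24117 in rat GABA libraries and 22487, 22614 and 22136 in rat untreated libraries. Mouse Hmgcs1 stood at 17780.00, 17427 and 18377 in GABA libraries and 21318, 21318 and 21334 in untreated libraries. Sc5d and Cyp51, enzymes of the sterol steps, fell in mouse (-0.27 ± 0.04 and -0.21 ± 0.03) and stood at 0.03 ± 0.03 and 0.05 ± 0.03 in rat. Acat2, which makes acetoacetyl-CoA at the start of the pathway, fell in both species, at -0.17 ± 0.03 in rat and -0.19 ± 0.04 in mouse, and lost the mouse call in 4 of 6 fits without 1 mouse library. In hippocampal cultures 8 of the 23 rose and none fell at an adjusted p under 0.05 (limma). For comparison, 3.91% of all genes tested in both species fell in mouse mPFC and 13.3% rose in hippocampus.

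Most of the cell cycle genes tested fell in rat, and 17 of them had a lower response in rat than in mouse. Of 34 tested, 0 rose (1 at an unadjusted p under 0.05, limma) and 22 fell in rat, 1 rose and 1 fell in mouse. The median change was -0.17 in rat and 0.04 in mouse. Among all genes tested in both species, 12.4% fell in rat, and 3.56% rose and 3.91% fell in mouse. Ube2c, a ubiquitin-conjugating enzyme of mitotic exit, stood at 759.96, 683 and 769 in rat GABA libraries and 960.5, 947 and 1005 in rat untreated libraries. Mouse Ube2c stood at 1119.7, 1165 and 1197 in GABA libraries and 1146, 1150.1 and 1233 in untreated libraries. Libraries with and without GABA were apart in rat and overlapped in mouse, and the difference was -0.38 ± 0.07 (adjusted p = 0.00119). Plk1, a mitotic kinase, changed by -0.22 ± 0.04 in rat and 0.10 ± 0.05 in mouse, Mcm7, part of the replicative helicase, by -0.21 ± 0.03 and 0.05 ± 0.04, and Pcna, the replication clamp, by -0.17 ± 0.03 and 0.13 ± 0.04. Differences for these 3 genes were -0.32 ± 0.06, -0.26 ± 0.05 and -0.30 ± 0.06.

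Several genes that receive, transport or degrade GABA rose in rat. None of them rose in mouse with all libraries, but 3 did without replicate 1 of the mouse GABA group. Of 9 GABA-A subunits tested, 2 rose and 0 fell in rat and 0 rose and 1 fell in mouse (limma, with 3 higher and 0 lower in rat and 0 higher and 3 lower in mouse at an unadjusted p under 0.05). These counts lie near the shares over all genes tested in both species, of which 24.8% were called in rat and 7.47% in mouse. Another 6 listed subunits in both tables lay under the limit. Gabra2 and Gabrg3 were the subunits that rose in rat. Gabrg3 stood at 9.93, 17 and 18.9 in rat GABA libraries and 3, 2.99 and 11.05 in rat untreated libraries. Mouse Gabrg3 stood at 25.1, 18.3 and 16.6 in GABA libraries and 20.8, 13.9 and 16.9 in untreated libraries. Gabrg3 libraries with and without GABA overlapped in both species. Few reads stand behind each of these values, and Gabrg3 was not tested in rat without replicate 2 or 3 of the GABA group or replicate 3 of the untreated group. Gabra2 rose in rat (0.26 ± 0.07, adjusted p = 0.00716) and stood at -0.14 ± 0.13 (adjusted p = 0.581) in mouse, a difference of 0.39 ± 0.14 that did not pass. Gabra3 fell in mouse (-0.32 ± 0.08, adjusted p = 0.0172) and stood at -0.19 ± 0.10 (adjusted p = 0.166) in rat, the mouse call being lost in 5 of 6 fits without 1 mouse library. Gabra5 was the subunit whose difference passed (0.96 ± 0.25, adjusted p = 0.014). It stood at 172, 204 and 172 in rat GABA libraries and 172, 181 and 155 in rat untreated libraries. Mouse Gabra5 stood at 12.1, 13.5 and 19.5 in GABA libraries and 27.7, 21.8 and 33.8 in untreated libraries. That call was lost in 1 of 12 fits without 1 library, and 2 subunits had such a call without replicate 1 of the mouse GABA group.

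Of 13 genes of GABA-B receptors, GABA transport and GABA metabolism, 7 rose and 0 fell in rat, 0 rose and 1 fell in mouse (limma, with 8 higher and 0 lower in rat and 3 higher and 1 lower in mouse at an unadjusted p under 0.05). Over all genes tested in both species, 12.4% rose in rat and 3.56% rose in mouse. Without replicate 1 of the mouse GABA group 3 of the 13 rose in mouse and in rat alike, and 1 did under quantile normalization. The difference was higher in rat for 6 and lower for 0, the same counts as unadjusted. Gabbr1 and Gabbr2 encode the obligate pair of GABA-B subunits. Gabbr1 rose by 0.12 ± 0.03 (adjusted p = 0.00223) in rat and stood at 0.12 ± 0.04 (adjusted p = 0.116) in mouse, with a difference of -0.00 ± 0.05. Gabbr2 had 293, 326 and 303 in rat GABA libraries and 254, 224 and 264 in rat untreated libraries. Mouse Gabbr2 stood at 233, 233 and 209 in GABA libraries and 248, 231 and 246 in untreated libraries. The Gabbr2 response differed between the species by 0.42 ± 0.11 (adjusted p = 0.0179), a call lost in 1 of 12 fits without 1 library. Kctd12, an auxiliary subunit of the GABA-B receptor, stood at 257, 279 and 280.1 in rat GABA libraries and 176, 169 and 165 in rat untreated libraries. Mouse Kctd12 stood at 84.4, 87.5 and 97.7 in GABA libraries and 118, 109.9 and 78.2 in untreated libraries. Its responses differed by 0.84 ± 0.17 (adjusted p = 0.00235).

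The GABA transporter Slc6a11 (GAT-3) rose in rat, by 0.34 ± 0.05, and stood at 0.15 ± 0.05 in mouse. Its difference (0.20 ± 0.07, adjusted p = 0.0481) was lost in 11 of 12 fits without 1 library. Gad1, which makes GABA, and Abat, which breaks it down, rose in rat by 0.23 ± 0.07 and 0.13 ± 0.04, calls lost in 2 and 3 of 6 fits without 1 rat library. Aldh9a1, an aldehyde dehydrogenase that can make GABA from putrescine, fell in mouse, at -0.24 ± 0.05 (adjusted p = 0.00346), and stood at 0.00 ± 0.03 in rat. Slc12a2, the chloride importer NKCC1, stood at 1739.5, 1971 and 1748 in rat GABA libraries and 1457, 1556 and 1538 in rat untreated libraries. Mouse Slc12a2 stood at 5129, 4862 and 5032 in GABA libraries and 4931, 4994 and 5110.00 in untreated libraries. Its difference was 0.26 ± 0.06 (adjusted p = 0.00603), that of the potassium-chloride cotransporter Slc12a4 was -0.20 ± 0.05 (adjusted p = 0.0136), and that of Clcn3, a chloride-proton exchanger, was 0.16 ± 0.05 (adjusted p = 0.0405), the last being lost in 10 of 12 fits without 1 library. Of the 7 chloride genes tested, 2 rose and 1 fell in rat and 0 rose or fell in mouse (limma, also 0 at an unadjusted p under 0.05 in either direction). Over all genes tested in both species 24.8% were called in rat and 7.47% in mouse, so a list of 7 can readily hold no mouse call.

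Of the glutamate receptor genes 3 rose in rat, near the share over all genes, and 3 fell in mouse, above that share. Of 20 tested, Grin2c reached the limit in rat through untreated libraries alone. Of the other 19, 3 rose and 0 fell in rat (limma, with 6 higher and 1 lower at an unadjusted p under 0.05), against 12.4% rising among all genes. In mouse 0 rose and 3 fell (limma, with 1 higher and 9 lower unadjusted), against 3.91% falling among all genes, and the difference was higher in rat for 4 and lower for 1. Without replicate 1 of the mouse GABA group 1 of the 20 rose and 5 fell in mouse. Grm5, the metabotropic receptor mGluR5, stood at 141, 149 and 148 in rat GABA libraries and 97.05, 107 and 81.3 in rat untreated libraries. Mouse Grm5 stood at 1054, 1021 and 1100.2 in GABA libraries and 1124, 1135 and 1150.4 in untreated libraries. The Grm5 response differed between the species by 0.73 ± 0.11 (adjusted p = 0.000114). Immediate early genes respond within minutes to calcium and growth factor signals, and 21 were tested, leaving out Atf3. They showed 6 rises and 3 falls in rat, against 12.4% rising and 12.4% falling among all genes. In mouse they showed 1 rise and 2 falls, against 3.56% and 3.91% (2 rises and 1 fall without replicate 1 of its GABA group). Atf3, a stress-induced transcription factor, stood at 38.7, 26 and 34.8 in rat GABA libraries and 6, 8.98 and 8.03 in rat untreated libraries. Mouse Atf3 stood at 53.2, 69.2 and 57.6 in GABA libraries and 56.5, 71.3 and 60.3 in untreated libraries. It reached the limit in rat through GABA libraries alone, so no fold or test is given. Jun, a subunit of AP-1, rose in both species (0.28 ± 0.04, adjusted p = 4.91e-06 in rat and 0.22 ± 0.06, adjusted p = 0.0275 in mouse), though the mouse call was lost in 5 of 6 fits without 1 mouse library.

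Of the 580 differences that were lower in rat, 330 were of genes that fell in rat without a call in mouse and 102 of genes that rose in mouse without a call in rat, with 23 called in opposite directions and 110 called in neither. S1pr3, a receptor for sphingosine 1-phosphate, stood at 100.3, 87.02 and 96.4 in rat GABA libraries and 130.1, 112 and 105 in rat untreated libraries. Mouse S1pr3 stood at 62.3, 68.2 and 77.2 in GABA libraries and 25.8, 22.8 and 34.9 in untreated libraries. The S1pr3 response differed between the species by -1.59 ± 0.22 (adjusted p = 4.42e-05). Lrp2, the endocytic receptor megalin, had 102, 136 and 113 in rat GABA libraries and 118, 118 and 116 in rat untreated libraries. Mouse Lrp2 stood at 139, 126 and 165 in GABA libraries and 68.3, 72.3 and 58.2 in untreated libraries. The Lrp2 response differed between the species by -1.11 ± 0.18 (adjusted p = 0.000273). Arsg, a lysosomal sulfatase, and Gpc4, a heparan sulfate proteoglycan of the cell surface, rose in mouse by 1.14 ± 0.15 and 1.26 ± 0.16 and stood at -0.02 ± 0.12 and 0.28 ± 0.14 in rat. Col5a2, a fibrillar collagen chain, differed by -0.80 ± 0.19 (adjusted p = 0.00823), with a mouse call that was lost in 3 of 6 fits without 1 mouse library. Prom1, the membrane protein CD133, and Tead2, a transcription factor of the Hippo pathway, fell in rat, at -0.59 ± 0.13 (adjusted p = 0.00121) and -0.74 ± 0.10 (adjusted p = 1.32e-06), and stood at 0.21 ± 0.11 and 0.04 ± 0.12 in mouse.

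Hippocampal cultures, which share the species of the mouse side but none of its libraries, moved more often with mouse mPFC than with rat in the genes whose calls were opposite. Of the 99 genes that rose in rat and fell in mPFC, 56 fell and 6 rose in hippocampus, and of the 23 that fell in rat and rose in mPFC, 12 rose and 1 fell. Of the 158 that rose in both rat and mPFC, 109 rose and 3 fell in hippocampus, and of the 74 that fell in both, 35 fell and 1 rose. Among the 11016 genes also tested there, 13.3% rose and 15% fell in hippocampus. Map1b fell there, at -0.32 ± 0.03 (adjusted p = 1.86e-09), as did Frmd4a, at -0.38 ± 0.03 (adjusted p = 7.48e-09), and Lyz2, at -0.89 ± 0.04 (adjusted p = 6.07e-15), while Aldh1l1 and Lgals1 rose by 0.22 ± 0.05 (adjusted p = 0.0011) and 0.74 ± 0.10 (adjusted p = 3.83e-06). Nfasc stood at 0.02 ± 0.03 (adjusted p = 0.748) there, and neither it nor Mbp had a call of a fall. The correlation across genes was 0.416 (Pearson) and 0.315 (Spearman) between the mPFC and hippocampal responses and 0.055 and 0.021 between the rat and hippocampal responses, over 11016 genes, again as a description only.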

How the data were processed

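The submitters' processing notes name HISAT, Bowtie2 and DESeq2 as tools and GRCm38.p6 as the mouse build, and which rat build was used is not stated in them. Libraries were poly-A selected and sequenced as single reads of 50 bases, per the labels' protocols. The deposited values are a signal per gene, not whole counts: in each library every value was a whole multiple of 1 step of 0.961 to 1.117 (100% of values, tolerance 1e-06), so they are read counts scaled by 1 factor per library, without a length correction. Rat entries without a symbol (2797, holding 1.52 to 1.58% of reads) were left out. The multiples were not tested as counts, and the unit assumed in planning for a count test was not met.

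Values were analysed as log2(value + 1) with limma 3.58.1 in R 4.3.3 (empirical Bayes moderated test, Benjamini-Hochberg over all genes tested, threshold 0.05, two-sided), after keeping genes with at least 10 in at least 3 libraries of a table. The rat and mouse tables were joined on symbol, and 1 model over the 12 libraries gave the difference of the responses and their mean, with the 4 group means as terms. That model took 1 spread per gene for both species. For genes at unlike levels in rat and mouse, the error of the difference can lie under that of 1 species, as for Lyz2, Ctss and Slc1a2. Such errors and p-values may be too small. With 3 libraries against 3, an exact permutation test of a single gene could not go below p = 0.10. The fits were tested on simulated data. Genes were named by rule. The first class held the 8 largest differences per direction among genes whose difference passed. The second held the 8 genes per direction with the largest smaller response among those called alike. The third held the 6 per direction, by the same measure, among those called oppositely whose difference passed. Means of at least 50 were required, with no overlap of libraries for the last 2 classes. Leading members of 30 lists were named too. Genes shown beyond the rule are said to be so, and some leading members are not reported here. The members and lists were chosen with earlier results of these data known. Some lists overlap: Slc7a11 is also in the NRF2 list, Gpr17 and Neu4 are in both the precursor and committed lists, and Cspg4 is in the mural list too. Same-numbered replicates were not taken as pairs in the main fits, within or between species. Within the rat, mPFC and hippocampal experiments, correlations of same-numbered GABA and untreated libraries ran from -0.097 to 0.104. Those of other-numbered libraries ran from -0.127 to 0.16. Figures were drawn with matplotlib 3.10.9.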

Additional observations from a re-analysis of the deposited data

Results flagged for a closer look

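For 29 named genes the response to GABA in rat cortex cultures differed from that in mouse mPFC cultures (limma, adjusted p under 0.05). Genes named for a large difference or for opposite responses were picked among those whose difference passed. For them the passing was fixed by the rule and is no further result, while Anxa3 and Ephx1 were named for their shared rise. Each gene is listed here with its rat-minus-mouse difference in log2(value + 1).

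Transcripts of immune cells led the differences towards rat: C1qc at 2.09, Lyz2 at 1.81, C1qb at 1.66, C1qa at 1.42, Itgb2 at 1.39, Myo1f at 1.32, Inpp5d at 1.24 and Ctss at 1.14. Slc7a11 had a difference of 1.30, Anxa3 of 1.11 and Ephx1 of 0.52, on top of a rise in both species. Genes that rose in rat and fell in mouse were Kcnj3 at 1.14, Hdac9 at 1.13, Cdk18 at 1.07, St18 at 0.93 and Map1b at 0.80, besides Lyz2 and Ctss.

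Towards mouse, differences were -1.59 for S1pr3, -1.16 for Arsg, -1.11 for Lrp2, -0.98 for Gpc4, -0.80 for Col5a2, -0.80 for Prom1 and -0.78 for Tead2. Genes that fell in rat and rose in mouse were Lgals1 at -0.91, Slc25a18 at -0.76, Aldh1l1 at -0.74, Ogg1 at -0.64, Fam83d at -0.52 and H2ax at -0.51. All 29 differences passed in each of the 12 fits that left out 1 library, but these fits share most libraries with the fit that picked the genes.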

How the results depend on the processing

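Counts of calls depended most on single mouse libraries. Without 1 library, calls numbered 2095 to 3106 in rat, 417 to 1819 in mouse mPFC (640 without the filter on low values) and 2354 to 4301 in hippocampus, the difference 959 to 1982, the mean response 1327 to 1993, genes alike 124 to 335 and genes opposite 60 to 241. The highest mPFC and opposite counts came without replicate 1 of the mouse GABA group, and the causes were not tested. The model with a replicate block gave 3161 calls in rat, 1092 in mouse mPFC, 4101 in hippocampus, 1391 for the difference, 1692 for the mean, 256 alike and 138 opposite. The numbers mark no shared animal in the labels, so they share a number only.

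Quantile normalization turned the rat response of Bcas1 to -0.043 and its difference to -0.070; no other named value reversed in the alternatives run. Under it the difference passed upwards in 760 genes and downwards in 582, against 869 and 580, and 87 genes rose in rat and fell in mouse. Calls of single genes lost without 1 library had adjusted p-values up to 0.222 (Bcas1 in rat). Trib3, Atf3 and Stc2 fell under the limit on low values, and so were not tested, when a GABA library of the species with the change was left out, and Gabrg3 when replicate 2 or 3 of the rat GABA group or replicate 3 of the rat untreated group was. The planned edgeR test was not run, and the scaled values were analysed as deposited. Depth limits genes such as Trib3 and Gabrg3, with few reads, and arms of 3 libraries limit all calls.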

Other observations

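Signalling lists that the comparison did not turn on are read against all genes tested in both species, of which 24.8% were called in rat and 7.47% in mouse. Of 15 feedback genes of the MAP kinase pathway, 5 rose and none fell in rat, and 1 rose in mouse (4 without replicate 1 of the mouse GABA group). Spry1, an inhibitor of growth factor receptor signalling, differed by 0.31 ± 0.07 (adjusted p = 0.00753), and Etv4, an ETS transcription factor, rose in rat by 0.39 ± 0.05 (adjusted p = 7.75e-08) and stood at 0.15 ± 0.08 in mouse. Of 26 voltage-gated and potassium channel genes, 7 rose in rat, near the share of calls over all genes, and 1 rose and 1 fell in mouse (3 and 3 without replicate 1 of the mouse GABA group). Kcna2, a delayed rectifier subunit, differed by 0.35 ± 0.09 (adjusted p = 0.00841). Among 16 BMP pathway genes 4 rose and 2 fell in rat and 1 fell in mouse (1 rose and 2 fell without that replicate), with Id3, a BMP target that blocks bHLH factors, at -0.40 ± 0.04 (adjusted p = 8.9e-11) in rat and -0.08 ± 0.05 in mouse. Notch genes (15 tested) gave 5 rises and 2 falls in rat and 1 rise in mouse (2 without that replicate): Hes5, a Notch target, stood at -0.43 ± 0.06 (adjusted p = 8.53e-07) in rat and -0.17 ± 0.11 (adjusted p = 0.399) in mouse, and Lfng, which modifies Notch, rose in both by 0.23 ± 0.06 and 0.39 ± 0.07. Wnt targets (11 tested) gave 1 rise and 3 falls in rat and 2 rises and 1 fall in mouse, the fall being lost without that replicate; Ccnd2, cyclin D2, rose in both by 0.48 ± 0.03 and 0.23 ± 0.04, more in rat (0.25 ± 0.05, adjusted p = 0.00371).

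Antioxidant targets of NRF2 (15 tested) gave 4 rises and 2 falls in rat and 1 rise in mouse, that of Slc7a11 (2 without replicate 1 of the mouse GABA group). Hmox1, heme oxygenase 1, rose in rat by 0.31 ± 0.05 (adjusted p = 1.1e-05) and stood at -0.05 ± 0.06 in mouse. Respiratory chain genes (19 tested) gave 2 falls in rat and 1 rise in mouse, cytosolic heat shock genes (13 tested) 1 rise and 2 falls in rat and no call in mouse (1 lower at an unadjusted p under 0.05, limma, and 4 falls without replicate 1 of the mouse GABA group). Of 7 interferon genes tested, Psmb9 reached the limit in mouse through GABA libraries alone, and the other 6 gave no call in either species (limma, with 1 higher and 2 lower in rat and 1 higher in mouse at an unadjusted p under 0.05). The list gave 1 rise and 1 fall in mouse without replicate 1 of the mouse GABA group and 1 fall in rat under quantile normalization. The response of Ifi27 differed by -0.62 ± 0.16 (adjusted p = 0.0151). BAF chromatin remodelling subunits (28 tested) gave 2 rises and 4 falls in rat and none in mouse (limma, with 2 higher and 3 lower unadjusted, and 2 rises without replicate 1 of the mouse GABA group), with Arid1b the one whose difference passed (0.22 ± 0.06, adjusted p = 0.024).

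Markers of other cells follow. Neuronal genes (17 tested) gave 4 rises in rat and 1 rise and 1 fall in mouse, with sums of 20050.0 to 20618 in rat GABA libraries and 18604 to 19241 in rat untreated libraries, and of 31764 to 33800.0 in mouse GABA libraries and 32639 to 33285 in mouse untreated libraries. Dcx, doublecortin, fell in mouse (-0.20 ± 0.04, adjusted p = 0.00193) and stood at 0.04 ± 0.03 in rat. Endothelial genes passed the limit in 2 cases with no call (1 higher in rat unadjusted). Of 4 mural and fibroblast genes tested, Pdgfrb, a receptor of pericytes, fell in rat (-0.81 ± 0.13, adjusted p = 6.91e-06) and stood at -0.48 ± 0.24 (adjusted p = 0.265) in mouse. Cspg4 and Igfbp2 rose in both species, and Igfbp2, an IGF-binding protein, did so by 0.59 ± 0.03 in rat and 0.63 ± 0.07 in mouse. Col1a2, also tested, reached the limit in rat through GABA libraries alone. The mural list summed to 10110.0 to 10372 in rat GABA libraries and 8048 to 8192 in rat untreated libraries, and to 12464 to 14050.0 in mouse GABA libraries and 11114 to 11360.0 in mouse untreated libraries. Abundant genes weigh most in these sums, only 4 of the 14 genes present were tested, and Cspg4 is a precursor marker too. The sums therefore do not measure mural cells.

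Genes tested in 1 species alone did not enter the difference. Of these, rat calls were 126 of 789 with no mouse counterpart by symbol (16%) and 83 of 494 under the mouse limit (16.8%), against 24% over all rat genes tested. Mouse calls were 113 of 3194 (3.54%) and 32 of 604 (5.3%), against 6.54%.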
